A study of Mus musculus with 13 samples.

Results

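Baseline gene expression was described in sympathetic ganglia of wild-type mice at 2 weeks of age. Every sample whose title marks it as a wild-type ganglion sample was used, which gave 7 of the 13 samples of the study. The other 6 samples came from TH-MYCN+/+ mice, which are homozygous for a MYCN transgene driven by a tyrosine hydroxylase promoter. These 6 samples were not used for any level here. The wild-type mice were littermates of the same age, carried no stated treatment, and served as the study's controls. Each sample was total RNA from dissected superior cervical and coeliac ganglia, labelled with Cy3 and hybridised to a 1-colour Agilent array. The labels do not say how many animals or how much of each ganglion went into a sample, and they name no sex, litter or batch. They also do not say that the 7 arrays come from separate animals, so the spread between arrays given below may be technical in part. Arrays are called by their replicate number, 1 to 7, which carries no order.

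The superior cervical ganglion supplies the head and neck and the coeliac ganglion supplies the upper abdominal organs. Their principal neurons receive acetylcholine from preganglionic fibres in the spinal cord and release noradrenaline, often with neuropeptide Y, onto their targets. Each neuron is wrapped by satellite glia, axons run with Schwann cells, and the ganglion holds capillaries, connective tissue and resident macrophages. In bulk tissue of this kind, fewer cells of a type and less RNA per cell cannot be told apart.

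The 4 markers given for the tissue were present on every array. Dbh had levels of 17.53, 17.57, 17.17, 17.34, 17.57, 17.24 and 17.19 on arrays 1 to 7, where a level is a quantile-normalized log2 intensity and 1 unit is a 2-fold step. Th had levels of 17.28, 17.39, 16.87, 17.01, 16.93, 17.03 and 17.04. Npy had levels of 15.29, 15.34, 14.76, 15.83, 15.20, 14.84 and 15.39, and Sox10 had levels of 11.47, 11.79, 11.22, 11.55, 11.49, 11.37 and 11.76. Dbh and Th, the enzymes that make noradrenaline and the dopa it is made from, were among the 30 brightest genes of the array. Sox10 is the transcription factor of peripheral glia and Npy the main peptide co-transmitter of these neurons, and their SDs were 0.20 and 0.36 (n = 7). That of Npy is above the median SD of 0.161 for genes with means between 14 and 16, and that of Sox10 is near the median of 0.195 for genes between 10 and 12.

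The start regions of Th and Dbh are shown because these enzymes carry the identity of the tissue. Each sequence is the 250 bases before the gene's start in the RefSeq annotation of GRCm38.p6, read 5′ to 3′ on the gene's strand. Capitals mark TGACGTCA, the full cyclic AMP response element, a palindrome that reads the same on both strands.
Th, chr7:142899996-142900245, minus strand: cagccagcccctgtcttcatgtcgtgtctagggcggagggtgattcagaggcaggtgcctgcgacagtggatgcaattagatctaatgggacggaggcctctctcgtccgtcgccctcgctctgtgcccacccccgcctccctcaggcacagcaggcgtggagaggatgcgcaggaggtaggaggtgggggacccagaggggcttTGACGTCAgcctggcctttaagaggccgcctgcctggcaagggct
Dbh, chr2:27165257-27165506, plus strand: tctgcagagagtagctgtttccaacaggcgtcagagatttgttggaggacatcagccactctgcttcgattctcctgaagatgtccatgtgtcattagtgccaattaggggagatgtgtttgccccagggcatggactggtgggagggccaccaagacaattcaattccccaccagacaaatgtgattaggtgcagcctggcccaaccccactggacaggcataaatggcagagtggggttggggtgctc
The element occurred 1 time in the Th window, with its first base 45 bases before the start, and these letters did not occur in the Dbh window. In RefSeq windows of 300 bases, which run from 250 before to 50 after each start, it was found in 588 of 32851 (1.79%). By gene it was found in 549 of 27025 (2.03%). Among genes of the noradrenaline list with such a window it was found in 2 of 9, Th and Slc18a2, and among those of the granin and prohormone list in 3 of 9, Chgb, Scg2 and Pcsk1. A match is a description of the letters and says nothing of binding.

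**Figure D1:**
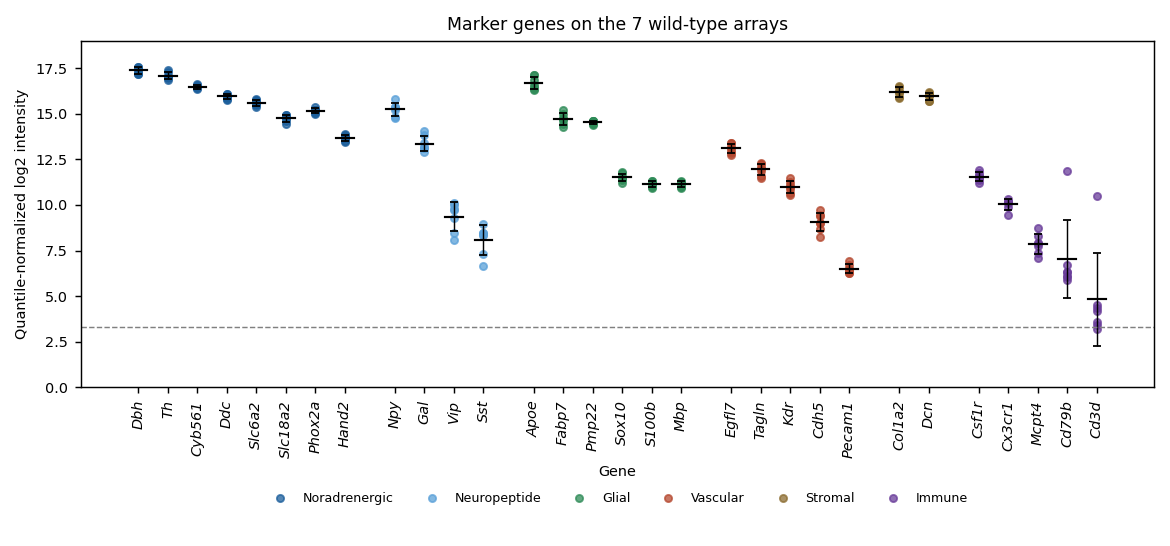
Quantile-normalized log2 intensity (vertical axis) of 30 marker genes (horizontal axis) on the 7 wild-type arrays. Points are arrays, horizontal bars are means, whiskers are 1 SD (n = 7), and the dashed line is the highest background level of an array on the normalized scale. Dbh and Th sit above 16 on every array, while Cd79b and Cd3d each have 1 array, array 3, far above the other 6.

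Arrays have no read depth, so precision here rests on there being 7 of them. The 7 arrays had deposited medians between 3.94 and 4.5 before normalization, and between 56.3% and 63% of their probes lay above background. Background was taken, array by array, as the 95th percentile over 96 ERCC control probes, which supposes that no ERCC transcripts were added, a point not given in the sources used here. Across genes, pairs of arrays correlated at 0.979 to 0.993, a description in which genes are not independent replicates. A level mixes the amount of RNA with how well a probe binds, so levels of different genes are ranks of probe brightness and not of transcript number.

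Of 21893 genes, 14965 (68.4%) were above background on all 7 arrays, 4353 were on none and 2575 were on some. With the highest ERCC probe of each array as the background, 9689 were above it on all 7. Of the 42 marker lists 36 had most of their members above background on all arrays, against 19 with that stricter background, so the counts given for lists below depend on where background is set. Some of the 36 had a smaller share than the 68.4% of all genes. These were neuropeptides, sensory neurons, T and NK cells, B cells, mast cells, neutrophils, adrenal cortex, exocrine pancreas, epithelium, cartilage and melanocytes. The median gene had a level of 6.97, and the 10th and 90th percentiles were 0.948 and 12.02. Spread fell with level: the median SD was 0.680 for the 2016 genes with means between 2 and 4, 0.321 for the 2919 genes between 6 and 8, and 0.161 for the 482 genes between 14 and 16. Below 2, where probes give little besides background, 5262 genes had a median SD of 0.285. At the bright end, 94 genes had means of 16 or more, with a median SD of 0.160.

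**Figure D2:**
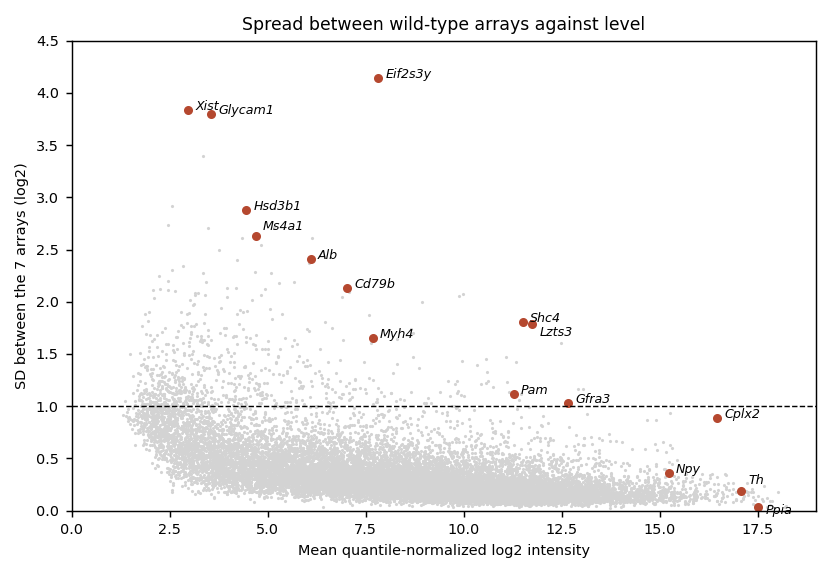
SD between the 7 arrays (vertical axis, log2) against mean quantile-normalized log2 intensity (horizontal axis) for the 16677 genes above background on 2 or more arrays. Each grey point is a gene, labelled points are genes named in the text, and the dashed line marks an SD of 1. Npy, with an SD of 0.36, lies above the median SD of genes of its level, and Eif2s3y, Xist and Glycam1 have the highest SDs of the labelled genes.

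The brightest gene symbols mixed genes known in neurons or in every cell with symbols that rest on 1 bright probe among dim ones. The 30 brightest genes had mean levels between 17.08 and 18.23. Genes used by every cell were among them: the actin gene Actb at 17.33, Gapdh at 17.12, Aldoa at 17.15, both of glycolysis, and Ppia, a cyclophilin, at 17.52 with an SD of 0.04. Mitochondrial COX1 and COX2, subunits of cytochrome oxidase, reached 17.74 and 17.38. The alpha tubulins Tuba1b and Tuba1a had means of 17.66 and 17.09, the haemoglobin gene Hba-a2 17.23, and Sparc, a matrix protein, 17.39. Dbh and Th had means of 17.37 ± 0.18 and 17.08 ± 0.19 (SD, n = 7).

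Other symbols of that set are not ones a ganglion is known for. Slc10a1, the bile acid transporter of hepatocytes, had a mean of 18.01, but its other probe read 0.88, below background. Kctd14 led the ranking at 18.23, with its next probe at 6.06. Elk1, a transcription factor, read 17.82 against 4.21 for its next probe, and Pirb, a receptor of myeloid cells, 17.43 against 7.43. Of the 30 genes, 18 had several probes, and for 13 of these the next probe was dimmer by 6 or more log2 units. By contrast the next probes of Gapdh and Tuba1a were within 1 unit, at 16.77 and 16.75. Different probes of a gene can detect different transcripts or other RNAs, and which of them is right for these symbols was not tested.

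**Figure D3:**
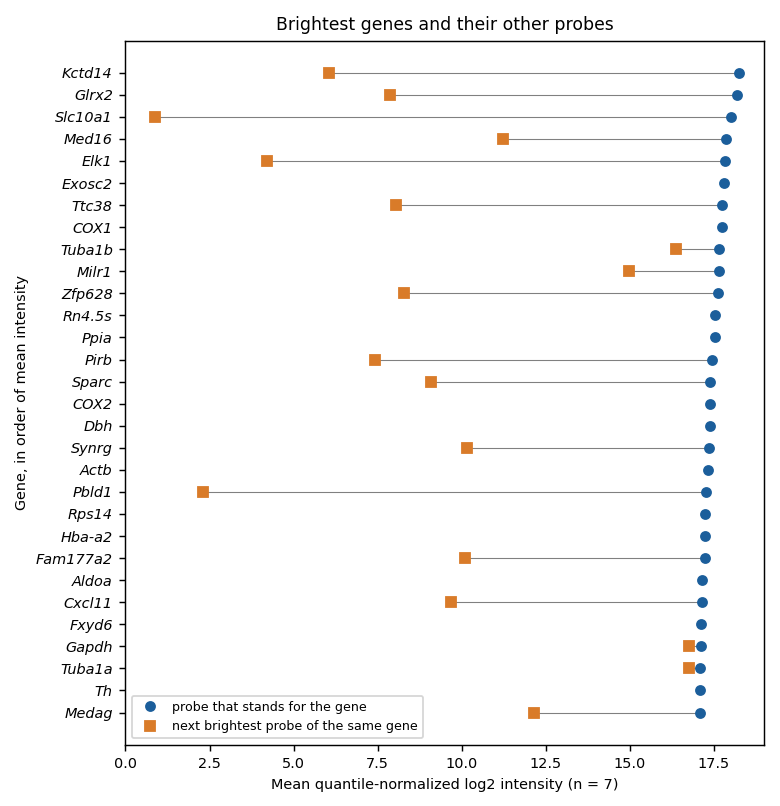
Mean quantile-normalized log2 intensity (horizontal axis, n = 7 arrays) of the probe that stands for each of the 30 brightest genes (circles) and of the next brightest probe of the same gene (squares), for genes in order of mean (vertical axis). Genes without a square have 1 probe. The lines of Kctd14, Slc10a1, Elk1 and Pbld1 are long, and the circle and square of Gapdh nearly touch.

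Genes of noradrenaline synthesis, storage and clearance were present as a whole: 14 of 14 measured members were above background on all 7 arrays, with a median level of 13.53 and a median SD of 0.18. Members of this list and of the others were placed there from general knowledge, and members named outside the rule in the processing section were picked after their values were seen. Ddc, which turns dopa into dopamine, ranged over 15.75 to 16.11 (median 15.92). Slc18a2, which loads amines into vesicles, ranged over 14.43 to 14.92 (median 14.76), and Slc6a2, the noradrenaline transporter of the axon, over 15.38 to 15.81 (median 15.58). Cyb561, the cytochrome that passes electrons into the vesicle for Dbh, had an SD of 0.09 around a mean of 16.46. Gch1 and Qdpr, which make and recycle the cofactor of Th, had means of 13.38 and 13.45, and Maoa, which breaks amines down, 13.62. Pnmt, which converts noradrenaline to adrenaline, was the dimmest member, at 5.80 to 6.59 (median 6.05).

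All 10 measured transcription factors of the sympathetic lineage were above background on every array. Phox2a, a homeodomain factor of noradrenergic neurons, ranged over 14.98 to 15.38 (median 15.21), and Hand2, a basic helix-loop-helix factor that maintains them, over 13.48 to 13.91 (median 13.69). Sox4 ranged over 13.22 to 13.97 (median 13.50), and Gata2 over 11.89 to 12.64 (median 12.43). Gata3, Isl1 and Tbx20 had means of 10.94, 11.87 and 10.01. Hand1 had a mean of 9.94 on its brightest probe. Insm1, a factor of immature neuroendocrine cells, had the dimmest probe and the highest SD of the list, with levels from 4.54 on array 4 to 6.29 on array 2. Sox11, like Sox4 a factor of developing neurons, lay between 7.56 and 8.62.

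Granins and the enzymes of prohormone processing were likewise present, 11 of 11 on all arrays. Their brightest probes were those of Cpe, a carboxypeptidase that trims peptides, at 15.56 to 15.77 (median 15.64), Chgb at 14.80 to 15.35 (median 14.95), Pcsk1n at 14.52 to 15.11 (median 14.79) and the convertase chaperone Scg5 at 13.42 to 14.20 (median 13.91). Chga and Scg2 had means of 12.87 and 12.26. Pam, which amidates peptides, was the exception in spread, with 12.29 on array 4 and 9.76 on array 5, and is described with the genes of its pattern below. Of 16 neuropeptide precursors, 10 were above background on all arrays and 2 on none, and their median SD was 0.61. Gal, the galanin precursor, ranged over 12.88 to 14.03 (median 13.17). Nmb, neuromedin B, ranged over 9.27 to 10.18 (median 9.79), and Penk, the enkephalin precursor, over 8.17 to 9.24 (median 8.58).

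Peptides of smaller neuronal groups had wider ranges. Vip levels lay between 8.09 on array 6 and 10.12 on array 1, a span of 2.03 units, with a median of 9.73. Sst lay between 6.66 on array 6 and 8.96 on array 7. Nts was above background on 4 arrays, and its highest level was 4.63. Cck was above background on 2, Pnoc on 4 and Calcb on 5. Crh and Ucn were above background on none. The peptide list as a whole had its lowest median on array 6, 6.93, against 7.49 to 8.51 on the other 6. Which ganglia or cells account for this was not tested.

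Genes of the axon and the synapse were bright. The median SD was 0.22 for the cytoskeletal list and 0.25 for the vesicle list, and both are above the medians of 0.171 and 0.161 for all genes with means of 12 to 14 and of 14 to 16. Of 20 members of the cytoskeletal and axonal list, 20 were above background on all arrays, with a median level of 14.14. Stmn2, a regulator of axonal microtubules, ranged over 16.27 to 16.58 (median 16.38), and Prph, the peripheral neurofilament peripherin, over 15.77 to 16.51 (median 16.03). Stmn3 and Rtn1 had means of 15.93 and 15.86, Rtn1 with an SD of 0.07. The neurofilament light chain gene Nefl ranged over 14.61 to 15.19 (median 15.06), and Gap43, a growth cone protein, over 14.55 to 15.34 (median 15.01). Sncb, beta-synuclein, was the dimmest member, with a mean of 6.30, while Sncg, gamma-synuclein, had 15.53.

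The vesicle release list had 12 of 12 members present on all arrays. Syt1, the calcium sensor of release, ranged over 15.92 to 16.20 (median 16.01), Syn2 over 15.58 to 16.32 (median 15.86) and Rab3a over 13.85 to 14.17 (median 14.07). Cplx2, a complexin, had levels of 15.55 and 14.97 on arrays 1 and 2, against 16.53 to 17.39 on arrays 3 to 7. Snap25 was also lowest on arrays 1 and 2, at 12.56 and 12.80, against 13.55 to 14.22 on arrays 3 to 7. The next brightest probe of Cplx2 did not separate these arrays, with 15.25 and 15.46 on arrays 1 and 2 and 15.42 to 15.80 on arrays 3 to 7.

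Receptors for the preganglionic transmitter were present. Of the 13 acetylcholine receptor and cholinergic genes, 12 were above background on all arrays. Chrnb4 and Chrna3 code for subunits of the ganglionic nicotinic receptor, and ranged over 12.06 to 12.56 (median 12.44) and 9.91 to 10.76 (median 10.53). Chrm1, a muscarinic receptor, ranged over 10.74 to 11.11 (median 10.91), and Ache, which breaks acetylcholine down, over 10.57 to 11.85 (median 11.05). Genes of cholinergic neurons themselves varied more: Slc18a3, the vesicular acetylcholine transporter, had 10.53 and 10.51 on arrays 1 and 2 and 8.36 and 8.55 on arrays 5 and 6. Slc5a7, the choline transporter, lay between 8.82 on array 5 and 10.42 on array 1, and Chat between 5.14 on array 5 and 6.60 on array 2. The 3 arrays with the highest Vip, 1, 2 and 7, also had the 3 highest levels of Slc18a3.

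Receptors for neurotrophic factors were present in 7 of 7 cases. Ngfr, the p75 receptor of nerve growth factor, ranged over 15.28 to 16.12 (median 15.56). Ret, the signalling receptor of the GDNF family, ranged over 12.63 to 13.19 (median 12.99), and its partner Gfra2 over 12.69 to 13.10 (median 12.91). Gfra3, the partner that binds artemin, fell into separate levels, with 11.93, 11.32 and 11.55 on arrays 1, 3 and 4, against 13.30, 13.63, 13.26 and 13.67 on arrays 2, 5, 6 and 7. Of the ion channel genes, 12 of 12 were above background on all arrays, led by the sodium channel gene Scn3a at 12.32 to 12.60 (median 12.48) and Cacna2d1, a calcium channel subunit, at 11.96 to 12.35 (median 12.12). Kcna1 ranged over 10.37 to 11.90 (median 11.41), with its lowest level on array 7.

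Markers of sensory neurons were present in part. On all arrays 5 of 9 were above background and 2, Prrxl1 and Mrgprd, were on none. The share of all genes above background on all arrays was larger, at 68.4%. Avil ranged over 9.37 to 10.48 (median 9.86), Scn11a over 8.78 to 9.65 (median 9.25) and Scn10a over 8.46 to 9.92 (median 9.01). Pou4f1, a defining factor of sensory neurons, was above background on 2 arrays, with a highest level of 3.36. Tlx3 ranged over 4.15 to 4.97 (median 4.43).

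Of 17 genes of Schwann and satellite glia, 16 were above background on all arrays, with a median SD of 0.32. Apoe, a lipid carrier made by satellite glia and macrophages, ranged over 16.32 to 17.14 (median 16.58), and Fabp7, a fatty acid binding protein of glia, over 14.28 to 15.23 (median 14.69). Entpd2 and Lgi4, an ecto-nucleotidase and a secreted Schwann cell protein, had means of 13.59 and 13.44. Kcnj10, the inward rectifier of satellite glia, had an SD of 0.09 around 12.06, and S100b ranged over 10.90 to 11.34 (median 11.14). Gfap was above background on 4 arrays, with a highest level of 3.42, and Gpr37l1 was the most variable of the list besides Gfra3, from 7.69 to 9.85.

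Myelin genes were above background in 12 of 12 cases. Pmp22 ranged over 14.36 to 14.61 (median 14.59), Mal over 13.76 to 14.09 (median 13.91), Cnp over 11.30 to 12.18 (median 11.87) and Mbp over 10.90 to 11.33 (median 11.20). Mag, an adhesion protein of myelin, had a mean of 9.13. Egr2, the factor that drives myelination, had 6.73 on array 3 and 4.92 on array 7.

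Vessels were represented on every array. All 18 endothelial genes were above background on all arrays, with a median level of 9.16 and a median SD of 0.34. Egfl7, a secreted endothelial protein, ranged over 12.74 to 13.42 (median 13.15). Ly6c1 ranged over 10.75 to 11.76 (median 11.23), and Kdr, the main receptor of vascular growth factor, over 10.53 to 11.50 (median 11.01). Pecam1 and Tek, defining genes of endothelium, had probes of lower brightness, with means of 6.51 and 4.92. Array 3 had the highest level of 10 of the 18, including Cldn5 at 10.31 against at most 9.69 on the other 6, and Cdh5 at 9.73 against at most 9.47. It was the highest for 12.3% of all 16677 genes above background on 2 or more arrays. Vwf, which marks larger vessels, was highest on array 5, at 11.81, against 10.49 to 10.85 on the others.

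Pericyte and smooth muscle genes were present in 12 of 12 cases. Tagln and Acta2, contractile proteins of smooth muscle, ranged over 11.48 to 12.31 (median 12.04) and 9.32 to 11.03 (median 9.96). Rgs5, a pericyte gene, ranged over 9.14 to 10.32 (median 9.89), and Pdgfrb over 8.91 to 9.95 (median 9.46). Cnn1, a calponin of contractile smooth muscle, had 8.71 on array 5, the array with the highest Vwf and Acta2, against 5.70 to 6.78 on the other 6. Of 5 lymphatic genes, 4 were present on all arrays: Pdpn, which glia and fibroblasts also express, at 9.98 to 10.55 (median 10.30), Reln at 7.03 to 7.48 (median 7.21), Prox1 at 4.34 to 5.10 (median 4.75) and Lyve1. Lyve1, a receptor of lymphatic vessels and some macrophages, had 7.05 on array 3, against 3.79 to 5.31 on the others.

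Blood was present throughout. All 7 erythroid genes were above background on all arrays, with Hba-a2 at 16.83 to 17.53 (median 17.29), Hba-a1 at 14.64 to 15.83 (median 15.33) and Hbb-b1 at 13.67 to 14.54 (median 14.14). Haemoglobin genes are near copies of each other, so their probes may share signal. Hemgn ranged over 11.10 to 12.30 (median 12.05), and Alas2, the first enzyme of haem synthesis in red cells, over 8.60 to 9.62 (median 9.15). Connective tissue genes were present in 11 of 11 cases. The collagen genes Col1a2 and Col3a1 ranged over 15.85 to 16.55 (median 16.20) and 15.42 to 16.28 (median 15.81), Dcn, a matrix proteoglycan, over 15.71 to 16.18 (median 16.02), and Gsn over 13.58 to 14.30 (median 14.04). Postn, a matrix protein of activated fibroblasts, was highest on array 5, at 12.28, and lowest on array 1, at 10.92.

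Fat genes were present on each array at a like level. Of 10 adipose genes, 9 were above background on all arrays. Ucp1, the uncoupling protein that defines brown fat, ranged over 12.11 to 13 (median 12.60) with an SD of 0.35. Cidea, also of brown fat, ranged over 13.30 to 13.75 (median 13.60), Fabp4, which capillaries also express, over 13.48 to 14.15 (median 13.81), and Scd1 over 11.53 to 12.55 (median 12.13). Adipoq, a hormone of fat cells, had a mean of 9.20. Lep was the member not above background on all arrays, passing on 2. Brown fat surrounds neck and abdominal vessels in young mice, and its part in any other level here was not tested.

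Of 19 macrophage genes, 18 were above background on all arrays, and their median SD of 0.41 was the lowest of the immune lists. Csf1r, the receptor that macrophages depend on, ranged over 11.19 to 11.91 (median 11.56), Cx3cr1 over 9.45 to 10.32 (median 10.14), Adgre1 over 9.37 to 10.37 (median 9.77) and Aif1 over 9.17 to 10.64 (median 9.54). The complement genes C1qa, C1qb and C1qc, made by resident macrophages, had means of 8.18, 8.33 and 8.92. Itgam read 13.53, but its next probe read 4.45, so its level depends on the probe. Cd163 was above background on 2 arrays. Lyz2, a lysozyme of monocytes and macrophages, had 7.80 on array 3, against 3.37 to 5.27 on the others.

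Genes of antigen presentation were bright, 9 of 10 above background on all arrays. The class I chain B2m ranged over 12.46 to 13.34 (median 13.16) and H2-K1 over 12.54 to 13.93 (median 12.82). The class II genes were highest on array 3: H2-Eb1 read 13.66 there against 11.12 to 12.17 on the others, H2-Ab1 13.27 against at most 11.81, and Cd74, the invariant chain, 12.51 against at most 11.04. Ciita, which switches class II on, did not follow them, with 2.20 on array 3, below background, and its highest level, 3.38, on array 5. Of the 9 mast cell genes 6 were above background on all arrays, with Kit, also a receptor of other cells, at 9.46 to 10.32 (median 10.08), the protease Mcpt4 at 7.09 to 8.75 (median 7.91), Tpsb2 at 6.97 to 7.78 (median 7.42) and Hdc, which makes histamine, at 5.85 to 7.22 (median 6.19). Of the 9 neutrophil genes 5 were above background on all arrays and 2, Ngp and Mmp8, on none. Elane ranged over 5.94 to 6.99 (median 6.53), S100a9 over 5.54 to 6.98 (median 5.99), Camp over 5.58 to 6.45 (median 6.08) and Lcn2 over 4.54 to 5.39 (median 5.03).

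Most lymphocyte genes were low on 6 arrays and high on array 3. Array 3 had the highest level of 11 of 11 measured T and NK cell genes and of 8 of 8 B cell genes. Over all 16677 genes above background on 2 or more arrays, array 3 was the highest for 12.3%. Cd3d, part of the T cell receptor complex, read 10.48 on array 3 and 3.19 to 4.49 on the others. Cd79b and Ms4a1, B cell surface genes, read 11.84 and 10.51 on array 3, against 5.89 to 6.70 and 3.11 to 4.54 on the others. On array 3 these genes stood 97-fold, 48.4-fold and 110-fold above the mean of the other 6 arrays. Cd3g, Cd8a, Cd8b1, Pax5 and Blk were above background on array 3 and on no other array, and Cd8a was at least 19.3-fold higher there. Such a bound is the highest array over the mean of the other 6, in which any array below its own lowest signal above background is set at that signal. Cd3e, with 9.52 on array 3 and 8.02 to 8.79 elsewhere, and Cd4, with 9.45 and 8.34 to 9.33, did not share the low levels of Cd3d on the other arrays.

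The median of 5 genes of immature thymocytes was 3.07 on array 3 and at most 2.27 on the others, but the median deviation of its members from their own medians was 0.00 there. Of these 5, 1 gene, Dntt, was above background on all arrays, at 3.50 to 5.44 (median 4.41), with 4.41 on array 3. Rag1 and Ptcra were above background on none. Rag2 read 3.07 on array 3 and 3.21 on array 4, and Themis, which mature T cells also express, read 4.22 on array 3 against at most 1.51.

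**Figure D4:**
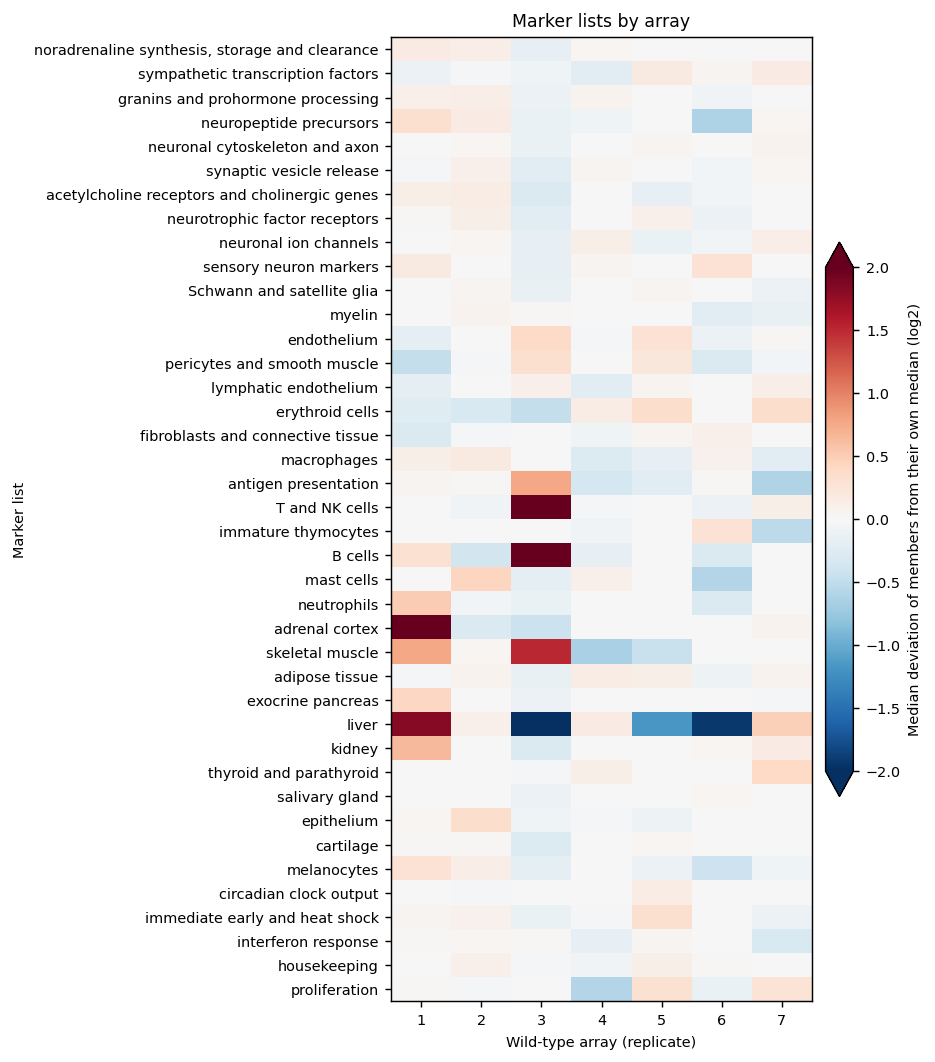
Deviation of 40 marker lists (vertical axis) on each of the 7 wild-type arrays (horizontal axis), as the median over measured members of the level minus the member's own median over arrays (colour, log2, clipped at 2 above and below). The neuronal and glial lists are pale on every array apart from the neuropeptides, which are blue on array 6, the T and NK cell and B cell lists are dark red on array 3, the adrenal cortex and liver lists are dark red on array 1, and the liver list is dark blue on arrays 3 and 6. No neuronal or glial list deviates by 1 or more on any array.

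Genes of tissues that lie near the ganglia were next. Of 11 adrenal cortex genes, 6 were above background on all arrays, and array 1 had the highest level of 7. Over all 16677 genes it was the highest for 21.8%. Cyp21a1, the 21-hydroxylase, read 10.49 on array 1, against 3.97 to 7.62 on the others, and Star, which brings cholesterol into mitochondria, read 8.07 against 3.27 to 5.35. Hsd3b1 read 8.85 on array 1, 6.04 on array 7 and below background on arrays 2 and 3. Cyp11b1 read 8.14 on array 1 and at most 4.43 on the others, while Cyp11b2 was above background on none. Nr5a1, the factor of steroid-making cells, did not follow them, with 6.35 on array 1 and 5.88 to 6.44 over all arrays. The broadly expressed Fdx1, ferredoxin, ranged over 11.36 to 11.87 (median 11.53), and the lipoprotein receptor gene Scarb1 over 8.52 to 9.29 (median 9.06), lowest on array 1.

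Liver genes followed an order of their own. Of 7 genes 5 were above background on all arrays, and array 1 had the highest level of 6. Alb, serum albumin, read 9.44, 7.49, 2.73, 7.07, 4.07, 4.32 and 7.59 on arrays 1 to 7. Ahsg, fetuin, read 10.15, 8.10, 5.12, 8.25, 5.95, 6.17 and 9.34. Arrays 3, 5 and 6 were the lowest for both, by over 2 units for Alb against the nearest other array. Fgb and Ambp, further plasma protein genes of liver, had the same 3 arrays lowest, with 0.78, 2.80 and 2.86 against 5.23 or more for Fgb. Apoa1, Ttr and Apoa2 also had those 3 arrays lowest, Apoa2 over a narrow range of 9.02 to 9.89 (median 9.33). Serpina1a, highest on array 3 at 11.54, did not follow this order.

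Skeletal muscle genes were present, 13 of 15 on all arrays. Myl1, a myosin light chain, ranged over 13.15 to 13.47 (median 13.34). Tnnc2 and Tnni2, troponins of fast muscle, were highest on array 3, at 11.27 and 11.10, and lowest on array 5, at 8.29 and 8.32. Myh8, the perinatal myosin heavy chain, read 11.26 and 11.48 on arrays 1 and 3 and 8.94 and 8.66 on arrays 4 and 5. Myh4, a fast adult myosin, read 10.16, 9.21 and 8.67 on arrays 1, 2 and 3, against 5.77 to 6.80 on the other 4. These sets of arrays were drawn from the levels of Myh4 itself, so their separation is no further result. In the search for separate levels described below, 2 of 15987 genes had arrays 4 to 7 as the low set.

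Markers of other neighbouring tissues were mostly dim. Of 12 pancreatic genes 7 were above background on all arrays, with Amy2a5 at 6.88 to 7.47 (median 7.18), Cela1 at 6.32 to 7.98 (median 6.78), Cel at 6.54 to 7.15 (median 7.0) and Cpb1 at 5.12 to 6.19 (median 6.04). Amy2a5 is a near copy of other amylases, and the defining pancreatic genes Cela2a, Cela3b and Try4 were above background on none. Prss2 was above background on array 1 alone, at 5.19. Of 5 kidney genes 1, Aqp2 at 3.64 to 4.36 (median 3.97), was above background on all arrays. Kap and Slc34a1, of the proximal tubule, were above background on 6 each, Kap between 0.95 and 5.99. Umod and Slc12a1 were above background on none.

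Of 4 thyroid and parathyroid genes 1, Tshr at 6.2 to 7.16 (median 6.48), was above background on all arrays. Tg, thyroglobulin, read 7.84 on array 7 against 1.80 to 2.64 on the others, at least 33.4-fold, while Pax8 and Pth were above background on none. Of 7 salivary genes 1, Amy1 at 9.44 to 9.85 (median 9.68), was above background on all arrays. Aqp5 was above background on array 2 alone, at 2.94, and Prol1 on array 6 alone, at 2.68. Of 11 epithelial genes 6 were above background on all arrays, with Krt10 at 8.30 to 8.87 (median 8.57), Cdh1 at 6.53 to 7.34 (median 6.99) and Dsp at 5.89 to 7.36 (median 6.96). Trp63, a factor of basal epithelium, read 11.37, but its next probe read 6.47. Of 7 cartilage genes 4 were above background on all arrays, Comp at 7.91 to 9.18 (median 8.49), Hapln1 at 5.96 to 6.84 (median 6.4), Col11a2 at 4.70 to 5.60 (median 5.0) and Col2a1 at 3.68 to 5.27 (median 4.78). Of 6 melanocyte genes 4 were, Mitf at 8.96 to 9.56 (median 9.31), Tyrp1 at 7.13 to 8.60 (median 7.60), Dct at 5.43 to 6.5 (median 6.30) and Pmel at 2.80 to 4.27 (median 3.67), while Tyr passed on 4 arrays and Mlana on 6.

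Hox genes mark position along the body axis. Of 38 measured, 19 were above background on all arrays and 9 on none. The brightest probes were those of Hoxc4 at 11.30 to 11.92 (median 11.73), Hoxc6 at 10.07 to 10.74 (median 10.60), Hoxc9 at 8.98 to 10.58 (median 10.05) and Hoxc5 at 6.35 to 7.64 (median 7.34). Hoxd8, Hoxa7, Hoxa3, Hoxd4, Hoxb7 and Hoxb4 had means of 7.10, 7.04, 6.82, 6.81, 6.77 and 6.72. Hoxb2, Hoxd3, Hoxb6, Hoxb3 and Hoxb5 lay between 5.08 and 6.09, and Hoxa6, Hoxa2 and Hoxd9 between 3.63 and 4.07. Hoxa4, Hoxa9 and Hoxb9 passed on 5 or 6 arrays, with means from 3.27 to 3.40. The genes of groups 11 to 13 in clusters a, b and d, Hoxa11, Hoxa13, Hoxb13, Hoxd11, Hoxd12 and Hoxd13, were above background on none, nor were Hoxb1, Hoxc13 and Hoxd1.

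Some Hox genes differed between arrays. Hoxc8 ranged over 3.65 to 6.48 (median 5.66), and Hoxc10, above background on 5 arrays, lay between 0.92 on array 6 and 5.09 on array 1. Array 6 was the lowest for 14 of the 38 measured Hox genes, dim ones included, and the highest for 3. The share of all genes lowest there was not counted. Of the 698 genes with an SD of 1 or more, array 6 was the lowest for 131. Among the 14 were Hoxc9, Hoxc8, Hoxc10 and Hoxb7, picked after their levels were seen, at 8.98, 3.65, 0.92 and 5.61 on array 6. On the other 6 arrays their lowest levels were 9.57, 4.72, 2.10 and 6.53. Hoxa5 passed on 3 arrays, Hoxa10 on 4 and Hoxc11 on 2, with highest levels of 3.50, 3.62 and 3.32. Hoxc4, by contrast, had its highest level on array 6. The share of superior cervical and coeliac tissue in each sample is not in the labels, and its part in these differences was not tested.

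Most members of the lists of common cell functions were above background on all arrays, as were 68.4% of all genes. The clock and proliferation lists, with 76.9% and 81.8%, were not far from that share. Housekeeping genes were above background in 10 of 10 cases, with Rplp0, a ribosomal protein, at 16.02 to 16.32 (median 16.15). The clock list had 10 of 13 on all arrays, led by Tef at 13.04 to 13.82 (median 13.45), Per1 at 11.52 to 12.27 (median 11.72), Dbp at 10.73 to 11.31 (median 10.93) and Clock at 8.60 to 8.91 (median 8.68), with Ciart on none. Immediate early and heat shock genes had 12 of 13, led by Nr4a1 at 12.42 to 13.13 (median 12.82), Jun at 12.14 to 12.70 (median 12.40), Dnajb1 at 12.06 to 12.58 (median 12.42) and Dusp1 at 9.04 to 9.56 (median 9.10). Fos ranged over 6.74 to 8.11 (median 7.15), highest on array 2. Interferon response genes had 8 of 8, led by Oasl2 at 9.80 to 10.35 (median 9.91), Isg15 at 8.82 to 9.95 (median 9.39), Ifit3 at 7.83 to 8.26 (median 8.13) and Gbp2 at 7.70 to 8.23 (median 8.02). Proliferation genes had 9 of 11, led by Pcna at 11.19 to 11.64 (median 11.31), Mki67 at 9.06 to 10.23 (median 9.63), Birc5 at 9.02 to 9.89 (median 9.61) and Plk1 at 7.18 to 8.13 (median 7.37). Mki67, Birc5, Bub1 and Top2a, which act in dividing cells, were all lowest on array 4, at 9.06, 9.02, 3.70 and 4.59. Array 4 was the lowest for 9 of the 11 measured members. The share of all genes lowest there was not counted, so the 9 of 11 has no base to be judged by. Of the 698 genes with an SD of 1 or more, array 4 was the lowest for 114, but that set was chosen for its spread. The list had its lowest median there, 6.64, against 6.96 to 7.46 on the others.

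Variation between the 7 arrays was measured by the SD of a gene's level. Of the 16677 genes above background on 2 or more arrays, 698 (4.19%) had an SD of 1 or more, and 80 of the 698 carry clone or model names. Array 3 had the highest level for 312 of the 698 (44.7%) and array 1 for 144 (20.6%), while each of the other 5 arrays had between 42 and 67. Over all 16677 genes array 3 was the highest for 12.3% and array 1 for 21.8%, so the count of array 1 is near its share. Without array 3 the number was 483, and without arrays 1 and 3 together it was 390. Among the 40 most variable genes without clone names, 24 had their highest level on array 3 and 7 on array 1. Of these 40, 9 had a second probe above background on at least 1 array, and for 8 of the 9 that probe was highest on the same array. A second probe could enter through 1 high array alone, and those dim on all arrays were not counted. The 8 of 9 is therefore not an independent check.

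A gene was said to have 1 array apart when the gap of that array to its neighbour, divided by the whole range, exceeded 0.568 (Dixon's ratio for 7 values). This held for 974 genes (5.84%), near the 5% that chance gives. Array 3 was apart as the highest for 348 genes (2.09%), and each of the other arrays for 18 to 66. Glycam1, a ligand made by the high endothelial venules of lymph nodes, read 11.95 on array 3 against at most 3.41 on the others, at least 595-fold over their mean at the background bound. Ccr7, the receptor that brings cells to lymph nodes, read 10.53 against 4.11 to 5.44, and Ccl5 11.70 against 5.37 to 6.71. Marco, a scavenger receptor of macrophages in lymph nodes and spleen, read 11.15 against 3.57 to 6.19. The B cell factors Pou2af1 and Spib read 9.54 and 9.11, against at most 2.96 and 3.33. The immunoglobulin segment Ighv14-2 read 11.88 against 4.14 to 5.96, and Cr2, which follicular dendritic cells share with B cells, 9.26 against 3.44 to 4.91. Without array 3 the SD of Cd79b was 0.29, against 2.13 with it, and that of Ccr7 0.50 against 2.19.

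Few neuronal genes were highest on array 3. It had the highest level of 0 of 14 genes of the noradrenaline list, 0 of 10 lineage factors, 0 of 11 granin genes and 0 of 20 cytoskeletal genes, and of 2 of 12 vesicle genes, 1 of 12 ion channel genes and 1 of 9 sensory neuron markers, where the share over all genes was 12.3%. Dbh was lowest there, at 17.17, against 17.19 to 17.57 on the others, and Th too, at 16.87 against 16.93 to 17.39. Both gaps to the nearest other array are smaller than the SDs of 0.18 and 0.19, which include array 3. Array 3 was the lowest for 8 of the 14 genes of the noradrenaline list, against 0 to 3 on each other array. It was the lowest for 4 of 11 granin, 6 of 20 cytoskeletal, 5 of 12 vesicle and 6 of 12 ion channel genes. For lineage factors and sensory neuron markers the counts were 0 of 10 and 1 of 9. The share of all genes lowest on array 3 was not counted, so these counts have no base to be judged by. Of the 698 genes with an SD of 1 or more, array 3 was the lowest for 80, but that set was chosen for its spread. The median of the noradrenaline list was 13.25 on array 3 and 13.45 to 13.71 on the others. Whether that sample held lymphoid tissue, and whether such tissue has a part in these levels, was not tested.

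**Figure D5:**
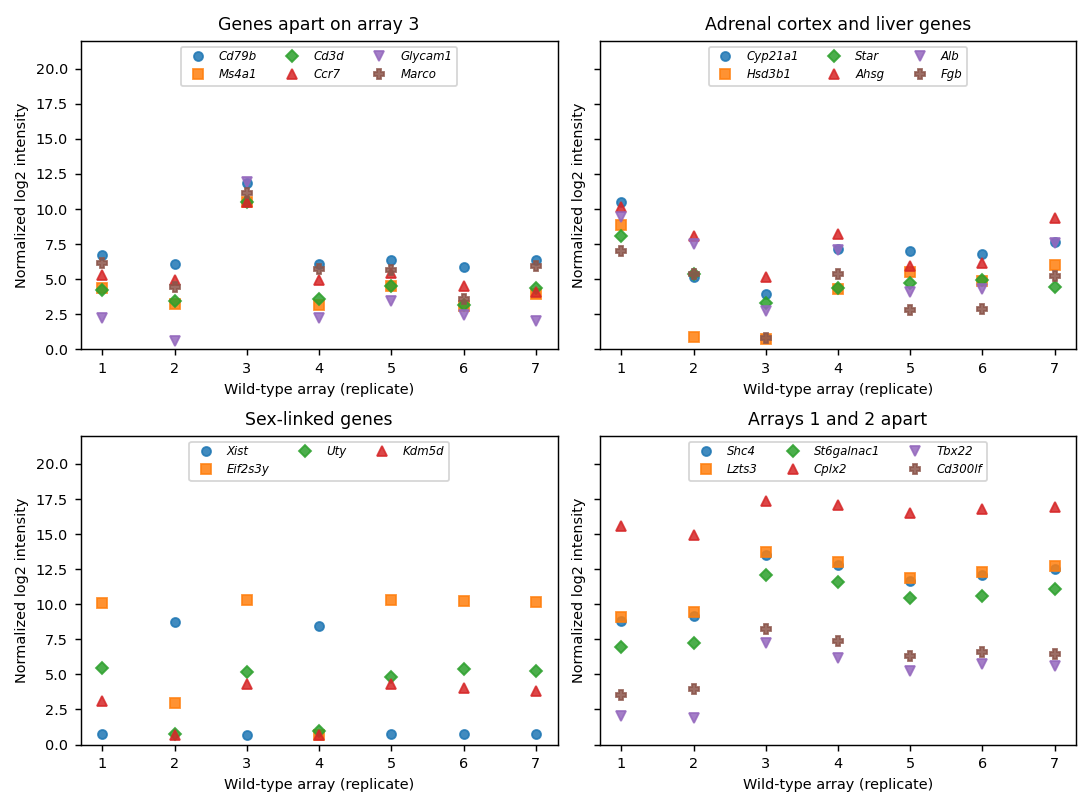
Quantile-normalized log2 intensity (vertical axes) of genes in 4 sets on the 7 wild-type arrays (horizontal axes), a point for each gene and array. Genes of the upper left panel are high on array 3, those of the upper right panel are high on array 1 and mostly low on array 3, Xist in the lower left panel is high on arrays 2 and 4 where the Y-linked genes are low, and the genes of the lower right panel are low on arrays 1 and 2.

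The largest SDs among the 40 most variable genes were those of Eif2s3y and Xist, at 4.14 and 3.83. Xist, the RNA of the inactive X, read 8.71 and 8.47 on arrays 2 and 4 and at most 0.76 on the other 5. Eif2s3y, on the Y chromosome, read 10.06, 10.27, 10.33, 10.25 and 10.16 on arrays 1, 3, 5, 6 and 7, against 2.98 and 0.70 on arrays 2 and 4. Uty and Kdm5d, also Y-linked, were above background on the same 5 arrays, with 4.79 to 5.46 and 3.09 to 4.29, and below it on arrays 2 and 4. Tsix was above background on none. The labels give no sex, and Xist and the Y-linked genes were thus high on 2 and 5 arrays, with no array high for both.

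Arrays 1 and 2 stood apart from the other 5 in a separate way. For 167 genes (1% of 16677) both lay at least 1 unit below every other array, whereas the other 20 pairs of arrays did so for 0 to 15 genes. For 44 genes (0.264%) both lay at least 1 unit above, against 0 to 9 for the other pairs. St6galnac1, a sialyltransferase, read 6.92 and 7.21 on arrays 1 and 2 and 10.42 to 12.09 on arrays 3 to 7. Shc4, an adaptor protein, read 8.81 and 9.18, against 11.65 to 13.49. Lzts3 read 9.09 and 9.46, against 11.89 to 13.73. St6galnac1, Shc4 and Lzts3 had the same order of the 7 arrays, as did Cabp5.

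Second probes above background on all arrays seldom showed differences of that size. Of the 167 genes low on arrays 1 and 2, 26 had a second probe above background on all arrays, and for 13 of the 26 it was lower on arrays 1 and 2 than on the others, by 1 unit or more for 3. This rule leaves out second probes that fall below background on arrays 1 and 2, so the 26 may understate agreement between probes. The median difference of the 26 second probes was 0.0023 units, against -1.64 for the probe that stands for the gene. The second probe of Shc4 read 5.07 and 5.29 on arrays 1 and 2 and 4.65 to 5.29 on arrays 3 to 7. Spock3, a proteoglycan gene whose second probe was above background on only 5 arrays and so is not among the 26, read 2.72 and 1.85 on arrays 1 and 2 against 5.45 to 5.82, and its second probe read 1.88 and 2.22 against 4.92 to 5.57. For the 4 of 44 genes high on arrays 1 and 2 with such a second probe, it was higher there for 3. Whether a difference in handling or in RNA sets these arrays apart was not tested, and the labels name no batch.

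Levels that fell into separate high and low sets were searched for more widely. A gene counted when a gap of at least 1 unit split the arrays into sets of 2 or more, each set spanning no more than the gap. Of 15987 genes above background on 4 or more arrays, 256 did so, in 34 different splits. Arrays 1 and 2 were the low set for 151. Arrays 1, 2 and 5 were the low set for 20, among them Pdia4, a chaperone of the endoplasmic reticulum, with 7.42, 6.92 and 6.17 on those arrays, against 10.10 to 10.66 on the other 4. Pam, the amidating enzyme, read 10.44, 10.12 and 9.76 on them and 12.01 to 12.29 on the others. Arrays 3 to 7 were the low set for 18 genes, and no further split held more than 11. Gfra3, described above, was 1 of 2 genes low on arrays 1, 3 and 4.

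Among the 40 most variable genes, a few were high on arrays other than 1, 2 and 3. Tas2r131, a bitter taste receptor, read 10.95 on array 6 and at most 2.64 on the others, at least 294-fold. Vmn1r104, a vomeronasal receptor, was above background on arrays 5 and 6, at 5.83 and 7.69. Cxcr2 and Mefv, genes of myeloid cells, were highest on array 6, at 6.27 and 7.03, and second on array 3, at 4.58 and 5.37. Cfap77, a gene of motile cilia, read 6.79 on array 5 and at most 2.72 elsewhere. These genes rest on 1 probe each, apart from Mefv, whose second probe had a mean of 1.15.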

How the data were processed

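The study's table held deposited log2 intensities of 55821 probes on 1-colour Agilent arrays. The base of the logarithm was inferred from the range of the values, and no label or header used here names the scanner steps behind them. The deposited columns had unequal medians, so they were not normalized between arrays. The 7 wild-type columns were quantile normalized over 55681 probes, after 140 control probes were left out, and 30626 probes with 1 gene symbol were reduced to the probe with the highest mean per symbol, giving 21893 genes. The 25055 probes without a single symbol were not used. A probe was above background when its deposited value exceeded the 95th percentile of 96 ERCC probes on that array. No comparison between groups was made and no p-value was computed. Dixon's ratio for 7 values was used only to describe genes with 1 array apart.

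Genes were named by rule: the 30 brightest, the 40 of highest SD among genes that passed background on at least 2 arrays, both without clone or model symbols, the 4 brightest members of each of 42 marker lists, the sex-linked list, Hox genes that passed on at least 2 arrays, and Th, Dbh, Npy and Sox10. The lists were written from general knowledge, and they and the rule were chosen with earlier results of these data known. Of 504 list entries 470 were matched, and the rest were not analysed here. Alternatives were other scalings, background levels, probe rules and SD measures, and each array left out. Leaving out arrays 1 and 3, or 1 and 2, together was chosen after seeing the data. Scripts used Python 3.11.15, numpy 2.4.6, pandas 2.3.3 and matplotlib 3.10.9 and were tested on simulated data.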

Additional observations from a re-analysis of the deposited data

Results flagged for a closer look

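For 34 of the 248 named genes, 1 of the 7 arrays stood far from the other 6, with a gap to its neighbour above 0.568 of the whole range. Chance gives about 5% of genes such a gap. Many of the 34 were named for their high SD, which such a gap helps to make. Array 3 was the far array for 26. On it the T and NK cell genes read 10.48 (Cd3d), 9.73 (Cd2), 8.13 (Il7r), 10.53 (Ccr7) and 8.73 (Nkg7). The B cell genes read 11.84 (Cd79b), 9.19 (Cd79a), 10.51 (Ms4a1) and 9.26 (Cr2). Further lymphocyte genes on array 3 were Cd5 at 9.92, Cd6 at 9.36, Il2rb at 7.35, Ms4a4b at 10.99, Gimap3 at 10.12, Tespa1 at 7.21, Themis at 4.22 and Trav3n-3 at 7.97. Also far on that array were Ly6d at 10.98, Pou2af1 at 9.54, Spib at 9.11, Ighv14-2 at 11.88, Ccl5 at 11.70, Glycam1 at 11.95, Il22ra2 at 8.26, Marco at 11.15 and H2-Eb1 at 13.66.

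The other arrays gave few. On array 1 Gnasas1 read 7.84, and on array 4 Actb and Ttc38 were lowest, at 16.97 and 17.68. On array 5 Cfap77 read 6.79 and Vwf 11.81. On array 6 Tas2r131 read 10.95 and Prol1 2.68, and on array 7 Tg read 7.84.

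The medians of 7 marker lists also had 1 array far from the rest. On array 3 these were T and NK cells at 9.0, B cells at 8.93, lymphatic endothelium at 7.03 and skeletal muscle at 8.67. The members of the lymphatic list lay a median of only 0.11 units above their own medians there, and of them Lyve1, at 7.05 on array 3, moved most. On array 1 the adrenal cortex list stood at 8.07, and on array 7 the thyroid and parathyroid list at 3.97. The 4 members of the thyroid list lay there a median of 0.39 units above their own medians, and of them Tg moved most. The interferon response list was lowest on array 7, at 7.71. By counts of genes array 3 stood apart as well, as the highest array apart for 348 genes and as the highest array for 312 of the 698 genes with an SD of 1 or more. The labels say nothing of how these samples differ, and a cause was not tested.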

How the results depend on the processing

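No paired analysis was possible because the samples form 1 group. The number of genes above background on all arrays was 9689 when the background was set at the highest ERCC probe, against 14965, and the number of marker lists with most members above background was then 19, against 36. Of the 30 brightest genes, 14 stayed among the 30 brightest when the mean or the median of all probes of a gene was used, and 29 did under the other settings tried. The number of genes with an SD of 1 or more, 698, was 241 among genes above background on all 7 arrays, 446 by the median absolute deviation, and 390 without arrays 1 and 3. It was 541 without arrays 1 and 2, and 483 to 759 when each array was left out in turn, lowest without array 3. Leaving out each array gave 14977 to 15123 genes above background on all arrays and 36 to 37 lists. Scaling by the median, the 75th percentile, all 13 arrays or not at all gave 670 to 827 variable genes. The level of 57 of 248 named genes moved by more than 1 SD with quantiles over all 13 arrays, and that of 61 and 60 with the mean and the median of all probes. Signal near background limits the dim genes: where a mean level lies between 2 and 4, SDs are highest and calls depend on the ERCC level.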
